A study of Mus musculus with 6 samples.

Results

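The tumour necrosis factor (TNF) superfamily comprises the TNF-like ligands and their receptors. Its members were taken by gene symbol: every symbol made of Tnfsf or Tnfrsf and a number, plus Tnf, Lta, Ltb, Ltbr, Fas, Fasl, Ngfr, Eda, Edar, Eda2r, Cd27, Cd40, Cd40lg and Cd70. Only array features with 1 gene symbol counted, and the brightest feature stood for a gene that had more than 1. This gave 42 of 30142 measured genes, 16 of them ligands and the rest receptors. Cd27, Tnfsf12 and Tnfsf13 lay on 2 features that carry several symbols and are not among the 42.

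The ligands are trimers, mostly anchored in the cell membrane, and some are shed as soluble cytokines. Receptors carry cysteine-rich repeats outside the cell. One class has a cytoplasmic death domain and can start caspase-driven death, another binds TRAF adaptors and turns on NF-kB and stress kinases, and decoys bind ligand without a full signal. In mouse skin Tnf itself is known to promote chemically induced tumours, and the ectodysplasin arm (Eda, Edar) patterns hair follicles.

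RNA came from cells sorted out of skin squamous cell carcinomas as cancer stem cells, by the gate Lin-, Epcam+, α6-integrin+ and CD34+. The samples fall into Sfrp1-/- (Sfrp1_KO, 3 samples), in which a secreted Wnt antagonist is deleted, and WT (3 samples). Both genotypes had received the mutagen DMBA on 3 days (PD 23, 25 and 27 in the labels) and then the tumour promoter TPA 2 times a week, up to 30 to 40 weeks. Each sample was hybridised to 1 Affymetrix MTA 1.0 array. The labels used here do not give the strain, the deleted part of Sfrp1, or whether samples of a genotype came from separate mice, so every p-value here rests on sample-to-sample scatter that could be technical. Values are deposited log2 signals. They reach 19.93, past the 16 bits of a scanner, so differences are given in log2 units and not as folds. On each array the background level was the highest of 23 background probe sets, between 5.04 and 5.10 in Sfrp1_KO and between 4.82 and 5.09 in WT.

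The 3 markers that the sort selects for did not run alike. Cd34 was above background on all 6 arrays, at 10.99 ± 0.71 in Sfrp1_KO and 9.42 ± 0.15 in WT (SD, n = 3 each; difference 1.57, limma adjusted p = 0.0714). Itga6, the α6-integrin gene, was also above background on all 6 but fell, with 7.62 ± 0.18 in Sfrp1_KO and 9.51 ± 0.64 in WT (difference -1.89, limma adjusted p = 0.0292). Epcam stood at 5.03 ± 0.17 in Sfrp1_KO and 7.59 ± 1.03 in WT (difference -2.56, limma adjusted p = 0.0455), and only 1 Sfrp1_KO array was above background. Of 11 keratinocyte markers 8 fell in Sfrp1_KO by limma, against 1.45% of all genes. The mean level of the 11 ran from 5.55 to 5.63 on the Sfrp1_KO arrays and from 9.25 to 9.72 on the WT arrays. Of 9 fibroblast markers 2 rose by limma, against 1.83% of all genes. Mean levels of the 9 were 6.39 to 7.07 in Sfrp1_KO and 5.35 to 6.60 in WT, where WT replicate 3 was the high array. None of 15 macrophage and leukocyte markers passed limma over all genes, but 11 had unadjusted p under 0.05, against 14.4% of all genes. Each of 11 was higher on every Sfrp1_KO array than on any WT array, against 9.10% of all genes. The mean level of the 15 ran from 4.98 to 5.54 in Sfrp1_KO and from 4.69 to 4.72 in WT. Ptprc, the pan-leukocyte antigen, was under background on all 6 arrays. All 10 T and NK cell markers were at or under background on all 6 arrays. Sdc1 alone passed among 6 B and plasma cell markers (lower, at 6.87 in Sfrp1_KO and 9.18 in WT). Cd79b, Ms4a1, Pax5 and Jchain of that list were under background on all 6 arrays, and Cd79a was above it on 1 WT array. None passed among 7 dendritic and Langerhans, 9 endothelial and 7 Schwann cell and melanocyte markers. Of these lists 0, 1 and 1 had unadjusted limma p under 0.05, against 14.4% of all genes. Sfrp1 was at 5.09, 5.11 and 5.15 in Sfrp1_KO, against 5.71, 5.48 and 6.07 in WT (difference -0.64, SE 0.15, limma adjusted p = 0.0969). It was above background on 2 of 3 Sfrp1_KO arrays and on all 3 WT arrays.

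Of the 42 members, 2 rose in Sfrp1_KO and 0 fell, by limma with Benjamini-Hochberg adjustment over all 30142 genes and a threshold of 0.05. Both are TRAF-binding receptors, Tnfrsf1b and Tnfrsf9. Over all genes 3.28% were called, 1.83% as higher and 1.45% as lower, so 2 of 42 is a share near that of the whole array. Without adjustment 9 members had p under 0.05, where 14.4% of all genes did. The arrays of the genotypes did not overlap for 14 members, 7 higher and 7 lower in Sfrp1_KO, against 19.9% of all genes (9.10% higher, 10.8% lower). The median difference was 0.0005 over the members and -0.01 over all genes. In 22 members the signal was at or under background on all 6 arrays, and 9 members were above it on all 6. RNA was measured in bulk, so that fewer cells of a type and less RNA per cell cannot be told apart.

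**Figure D1:**
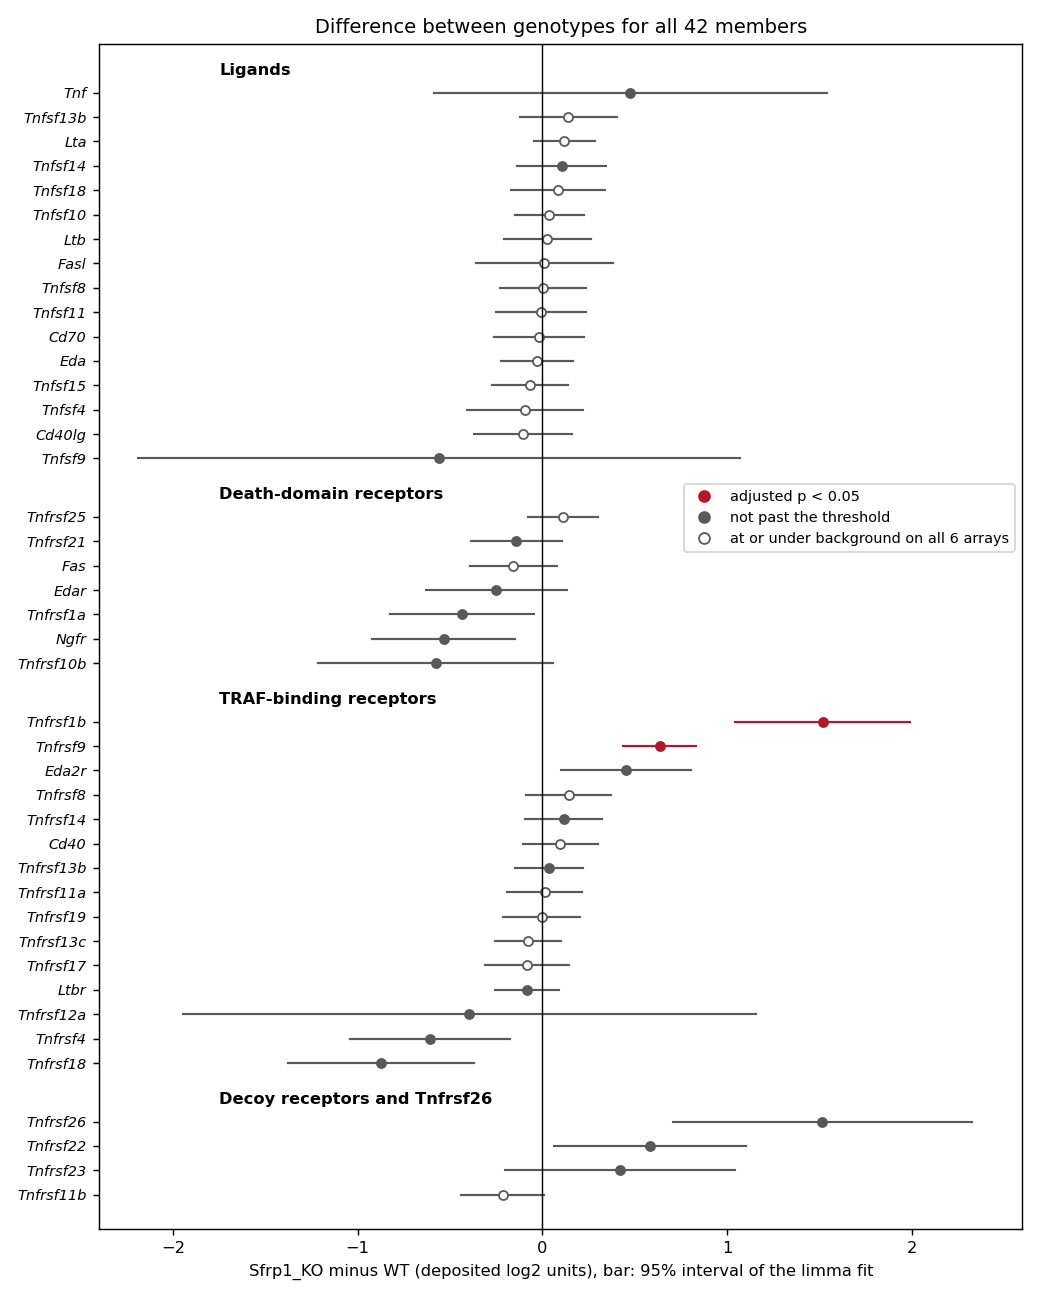
Difference of each of the 42 members, on the deposited log2 scale (Sfrp1_KO minus WT), grouped by role, with bars for the 95% interval of the limma fit. Only Tnfrsf1b (1.52) and Tnfrsf9 (0.63) passed the threshold, and members at or under background on all 6 arrays (open circles) lie between -0.22 and 0.14.

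Tnfrsf1b encodes the TNF receptor that lacks a death domain and signals through TRAF adaptors; it is found mainly on immune and endothelial cells. It stood at 6.96, 6.77 and 6.32 in Sfrp1_KO, against 5.06, 5.44 and 5.0 in WT. Each Sfrp1_KO array was above each WT array, and all 3 Sfrp1_KO arrays and 2 of 3 WT arrays were above background. The difference was 1.52 (SE 0.20, 95% CI 1.04 to 1.99, limma adjusted p = 0.0145). The call was lost without Sfrp1_KO replicate 1 (1.38, limma adjusted p = 0.0537), Sfrp1_KO replicate 2 (1.48, limma adjusted p = 0.0794) or WT replicate 3 (1.44, limma adjusted p = 0.0523). Of the 15 macrophage and leukocyte markers, 4 to 9 were above background on each Sfrp1_KO array and 3 to 4 on each WT array. Lyz2 had the widest positive difference of them (1.98, limma adjusted p = 0.0941). C1qa, C1qb, Laptm5 and Tyrobp also had positive differences, each above background on 2 Sfrp1_KO arrays and on no WT array. Cd68 alone had a negative difference (-0.26, 95% CI -1.22 to 0.71, limma adjusted p = 0.893), and WT replicate 1 was its highest array (6.72). Ptprc, Adgre1 and Csf1r were under background on all 6 arrays. The Lin- gate is meant to remove lineage-positive cells, and the part of such cells in the difference of Tnfrsf1b was not tested.

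Tnfrsf9 encodes CD137, a co-stimulatory receptor known from activated T cells. It was at 5.40, 5.36 and 5.53 in Sfrp1_KO and at 4.84, 4.78 and 4.78 in WT. All Sfrp1_KO arrays were above background and all WT arrays at or under it, so that the rise was at least 0.47 (fitted difference 0.63, SE 0.08, limma adjusted p = 0.0141). The T and NK cell markers given above were at or under background on the same arrays, and the part of T cells in the signal of Tnfrsf9 was not tested. Errfi1, an EGF receptor inhibitor that lies just beyond the neighbouring Park7, rose by 1.92 (SE 0.22, limma adjusted p = 0.00985), while Park7 between them had a difference of 0.27 (limma adjusted p = 0.730); both were looked up after the values of Tnfrsf9 were seen. Tnfrsf9 was not called without Sfrp1_KO replicate 1 (limma adjusted p = 0.0651), Sfrp1_KO replicate 2 (0.0569) or WT replicate 3 (0.0525), while the difference stayed between 0.58 and 0.67 when any 1 array was left out. For Tnfrsf1b, Tnfrsf9 and Tnfrsf26 p was 0.1 by an exact permutation test, two-sided, and no lower value can be reached with 3 arrays against 3. Every gene whose arrays do not overlap gets this value (19.9% of all genes), so it adds nothing particular to these members.

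The start-site sequences of the 2 called receptors are shown because they are the members that rose. RefSeq (GRCm38.p6) windows of 300 bases, 250 before and 50 after an annotated start, were on hand for 33 members in 37 windows. The 3 windows printed here lie on chromosome 4 and are written 5′ to 3′ on the strand of the gene, and capitals mark letters that match one of 5 searched motifs on either strand.
Tnfrsf1b, chr4:145246821-145247120, minus strand: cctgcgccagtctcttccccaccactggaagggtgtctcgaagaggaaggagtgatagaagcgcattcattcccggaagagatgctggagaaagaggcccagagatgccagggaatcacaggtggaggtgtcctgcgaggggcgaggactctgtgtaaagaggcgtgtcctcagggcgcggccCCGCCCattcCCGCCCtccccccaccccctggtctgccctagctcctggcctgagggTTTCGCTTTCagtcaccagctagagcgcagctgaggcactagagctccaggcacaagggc
Tnfrsf9, first start, chr4:150919905-150920204, plus strand: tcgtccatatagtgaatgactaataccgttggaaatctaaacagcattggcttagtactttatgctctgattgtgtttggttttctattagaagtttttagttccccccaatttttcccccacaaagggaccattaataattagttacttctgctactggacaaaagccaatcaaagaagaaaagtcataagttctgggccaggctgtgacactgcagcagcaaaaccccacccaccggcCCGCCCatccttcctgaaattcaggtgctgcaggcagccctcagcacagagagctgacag
Tnfrsf9, second start, chr4:150927749-150928048, plus strand: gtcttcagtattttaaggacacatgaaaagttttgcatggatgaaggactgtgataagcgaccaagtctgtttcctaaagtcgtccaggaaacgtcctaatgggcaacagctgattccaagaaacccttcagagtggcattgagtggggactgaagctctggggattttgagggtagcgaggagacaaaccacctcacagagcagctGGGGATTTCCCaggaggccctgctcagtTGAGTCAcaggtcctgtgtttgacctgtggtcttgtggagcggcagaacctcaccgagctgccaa
The Tnfrsf1b window holds TTTCGCTTTC, a match to the interferon response element (TTTC, any 2 bases, TTTC), at bases 241 to 250, just before the start, and 2 GC boxes (GGGCGG on the other strand). Of all 32851 windows 3.44% hold that element and 35.7% a GC box. The first Tnfrsf9 window holds 1 GC box. The second holds an AP-1 motif (TGANTCA, the element through which TPA is known to act) at bases 236 to 242, and 2 overlapping matches to the NF-kB consensus, at bases 208 to 217 and 209 to 218. The AP-1 motif was in 7.81% of all windows and in 6 of the 37 of members, and the NF-kB consensus in 5.81% and in 4 of 37. The interferon element was in 4, the GC box in 18 and the TATA box (TATAAA, 13.6% of all windows) in 7 of the 37. A match describes letters in a window and shows no binding.

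**Figure D2:**
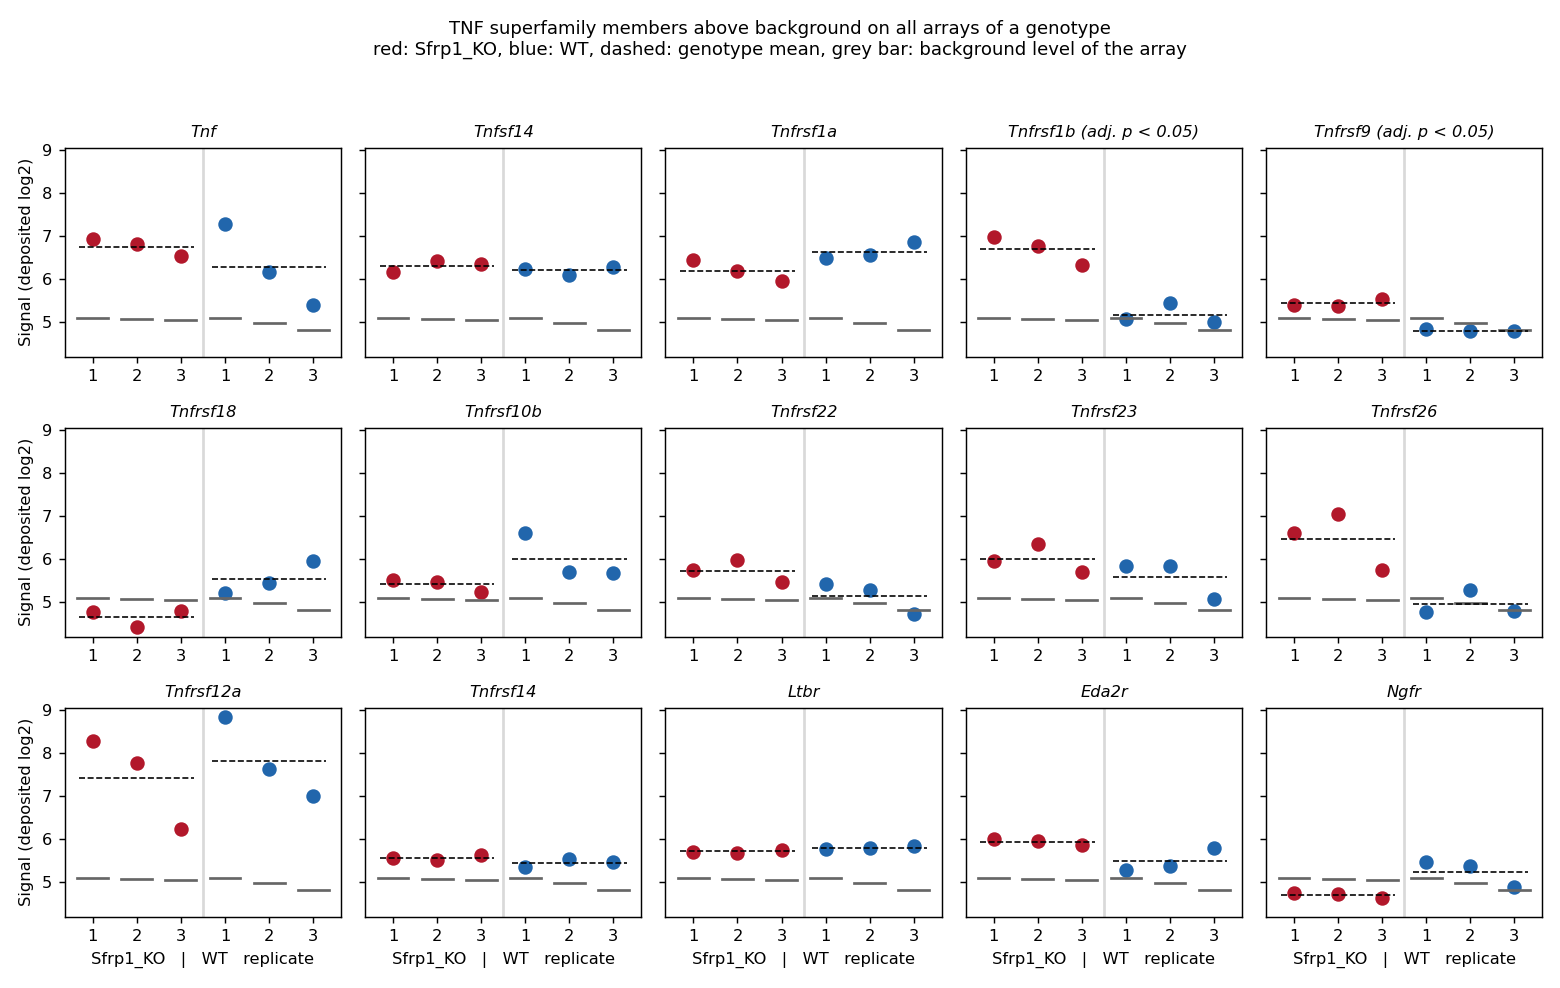
Deposited log2 signal of the 15 members above background on all arrays of at least 1 genotype, by replicate, with Sfrp1_KO (red) left of WT (blue). Grey bars give each array's background level and dashed lines the genotype means. In Sfrp1_KO 5 of the 15 separate upward (Tnfrsf1b, Tnfrsf9, Tnfrsf26, Tnfrsf22 and Eda2r) and 5 downward (Tnfrsf18, Ngfr, Tnfrsf1a, Tnfrsf10b and Ltbr). Of the 10376 genes that meet the same condition, 1644 separate upward and 1905 downward. Tnfrsf12a and Tnf overlap with a wide spread.

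Among the ligands, only Tnf and Tnfsf14 were above background on all 6 arrays. Tnf, the founding cytokine of the family and the ligand of Tnfrsf1a and Tnfrsf1b, was at 6.93, 6.80 and 6.52 in Sfrp1_KO and at 7.26, 6.15 and 5.40 in WT. The WT arrays enclose those of Sfrp1_KO, and the difference of 0.48 (SE 0.44, 95% CI -0.59 to 1.54, limma adjusted p = 0.764) did not pass. It ran from 0.04 without WT replicate 3 to 0.97 without WT replicate 1, so 1 WT array at either end sets its size. Tnfsf14, also called LIGHT, a ligand of Tnfrsf14 and Ltbr, was steady at 6.17, 6.41 and 6.34 in Sfrp1_KO and 6.23, 6.10 and 6.28 in WT (difference 0.10, 95% CI -0.14 to 0.34).

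Tnfsf9, the ligand of Tnfrsf9, had the widest spread of all members. Its values were 6.25, 4.68 and 4.60 in Sfrp1_KO, with 1 array above background, and 6.94, 5.63 and 4.63 in WT, with 2 above. Replicate 1 was the high array in both genotypes, and the ranges overlap (difference -0.56, 95% CI -2.19 to 1.07). The other 13 ligands were at or under background on all 6 arrays, between 3.44 and 4.53 in Sfrp1_KO and between 3.62 and 4.58 in WT. They include the death ligands Fasl and Tnfsf10 (TRAIL), the lymphotoxin genes Lta and Ltb, the osteoclast factor Tnfsf11 (RANKL), the B cell factor Tnfsf13b (BAFF), Eda, Cd40lg and Cd70. Their differences ran from -0.10 to 0.14, with the smallest limma adjusted p at 0.542.

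Of the 7 receptors with a death domain none was called and 2 had unadjusted limma p under 0.05, against 14.4% of all genes. The arrays of 3 were lower throughout in Sfrp1_KO (10.8% of all genes) and those of 1, Tnfrsf25, higher throughout (9.10% of all genes). Tnfrsf1a, the widely expressed TNF receptor that recruits TRADD, was at 6.45, 6.17 and 5.95 in Sfrp1_KO, against 6.47, 6.55 and 6.85 in WT. The highest Sfrp1_KO array and the lowest WT array differ by little, and the difference was -0.44 (SE 0.16, 95% CI -0.82 to -0.05, limma adjusted p = 0.281). Tnfrsf1a thus had a negative and Tnfrsf1b a positive difference, and a test of their contrast was not run. Tnfrsf10b, the mouse death receptor for TRAIL, was at 5.52, 5.47 and 5.23 in Sfrp1_KO, against 6.61, 5.68 and 5.66 in WT. Without WT replicate 1, the high array, its difference of -0.58 (SE 0.26, limma adjusted p = 0.402) shrank to -0.27. Ngfr, the low-affinity neurotrophin receptor, stood at 4.74, 4.72 and 4.63 in Sfrp1_KO, all under background, and at 5.46, 5.36 and 4.87 in WT, all above it. Its mean was at least 0.16 lower (fitted difference -0.54, SE 0.16, 95% CI -0.92 to -0.15, limma adjusted p = 0.174). Ngfr passed only without WT replicate 3 (-0.71, limma adjusted p = 0.0316). Tnfrsf21, also called DR6, was above background on 1 array (means 4.64 in Sfrp1_KO and 4.78 in WT). Fas and Tnfrsf25 were under it on all 6, Tnfrsf25 with 4.32, 4.37 and 4.47 in Sfrp1_KO and 4.22, 4.29 and 4.31 in WT.

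The ectodysplasin arm had its ligand Eda under background in both genotypes (4.30 ± 0.07 in Sfrp1_KO, 4.33 ± 0.06 in WT; SD, n = 3). Edar, the receptor of hair placodes, was under background on all Sfrp1_KO arrays (4.70, 4.89 and 4.71) and above it on 2 of 3 WT arrays (4.84, 5.36 and 4.86). Its arrays overlap and the difference was -0.25 (SE 0.16, limma adjusted p = 0.599). The adaptor of Edar, Edaradd, named here after its values were seen, was at 4.62, 4.64 and 4.75 in Sfrp1_KO, against 4.97, 5.29 and 5.25 in WT (at least 0.10 lower, fitted -0.50, SE 0.11, limma adjusted p = 0.0740). Eda2r, the X-linked receptor of the second Eda isoform, had a difference of the opposite sign, with 6.01, 5.95 and 5.85 in Sfrp1_KO and 5.27, 5.38 and 5.79 in WT. Its genotypes do not overlap, by a narrow margin at WT replicate 3, and it did not pass (difference 0.45, SE 0.15, 95% CI 0.10 to 0.81, limma adjusted p = 0.213).

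Among the other TRAF-binding receptors, Tnfrsf18 (GITR) and Tnfrsf4 (OX40) are adjacent genes on chromosome 4 that are known as co-stimulatory receptors of T cells. Tnfrsf18 was at 4.77, 4.41 and 4.78 in Sfrp1_KO, all under background, and at 5.20, 5.44 and 5.94 in WT, all above it. It was at least 0.46 lower (fitted -0.87, SE 0.21, limma adjusted p = 0.0968), short of the threshold. Tnfrsf4 had 4.60, 4.69 and 4.73 in Sfrp1_KO, all under background, and 5.01, 5.69 and 5.15 in WT, with 2 arrays above it (at least 0.21 lower, fitted -0.61, SE 0.18, limma adjusted p = 0.171). Both genes separate the genotypes, and their ligands Tnfsf18 and Tnfsf4 were under background on every array. The WT signal of this pair, like that of Tnfrsf9 in Sfrp1_KO, stood beside T and NK cell markers at background level. Trac and Lck of that list were not among the measured genes. The part of T cells in these signals was not tested.

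Tnfrsf12a, the receptor of TWEAK and known for induction by growth factors and injury, varied more between replicates than between genotypes. It had 8.27, 7.76 and 6.23 in Sfrp1_KO and 8.83, 7.62 and 7.0 in WT, far above background on all 6 arrays (difference -0.40, SE 0.64, 95% CI -1.95 to 1.16). Its sign turned without Sfrp1_KO replicate 3 (0.20), without WT replicate 1 (0.11) and with array weights (0.18). Tnfrsf14 (HVEM) and Ltbr, the receptors of Tnfsf14, were even across arrays. Tnfrsf14 was at 5.54, 5.5 and 5.62 in Sfrp1_KO and 5.34, 5.53 and 5.46 in WT (difference 0.11, 95% CI -0.09 to 0.32). Ltbr, which drives the alternative NF-kB route, was at 5.70, 5.68 and 5.74 in Sfrp1_KO and 5.75, 5.78 and 5.84 in WT (difference -0.08, 95% CI -0.26 to 0.09). Tnfrsf13b (TACI) lay near the background level, above it on 1 Sfrp1_KO array and 2 WT arrays, with means of 5.05 in Sfrp1_KO and 5.01 in WT. The last 6 receptors of this class, Cd40, Tnfrsf8, Tnfrsf11a, Tnfrsf13c, Tnfrsf17 and Tnfrsf19, were at or under background on all arrays, with differences from -0.08 to 0.14.

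Tnfrsf26, Tnfrsf22 and Tnfrsf23 are a run of neighbouring genes on chromosome 7 that the mouse has; Tnfrsf22 and Tnfrsf23 encode decoy receptors for TRAIL. Tnfrsf26 was at 6.60, 7.04 and 5.73 in Sfrp1_KO, against 4.77, 5.27 and 4.79 in WT, where 1 array was above background. The gap between genotypes was 1.52 (SE 0.34, 95% CI 0.71 to 2.33), close in size to that of Tnfrsf1b, but the wider spread left it at limma adjusted p = 0.0788. It passed without Sfrp1_KO replicate 3, the lowest array of that genotype (1.88, limma adjusted p = 0.0207). Leaving out any other single array, it did not pass (limma adjusted p from 0.111 to 0.239). Weighting the arrays gave 1.63 and a limma adjusted p of 0.0358. Tnfrsf22 was at 5.74, 5.97 and 5.45 in Sfrp1_KO and at 5.42, 5.28 and 4.72 in WT. These values separate by a narrow margin (difference 0.58, SE 0.22, limma adjusted p = 0.283). Tnfrsf23 was at 5.95, 6.35 and 5.70 in Sfrp1_KO and at 5.83, 5.83 and 5.07 in WT, which overlap (difference 0.42, SE 0.26, limma adjusted p = 0.581). In all 3 genes Sfrp1_KO replicate 2 was the highest and Sfrp1_KO replicate 3 the lowest array of that genotype. The genes resemble each other in sequence, so shared probe signal is possible and was not tested. Of 3 other genes of that stretch, also looked up after these values were seen, none was called by limma: Nap1l4 differed by 0.51 (adjusted p = 0.417), Cars by 0.44 (adjusted p = 0.143) and Osbpl5 by -0.03 (adjusted p = 0.965). Cars was higher on every Sfrp1_KO array than on any WT array (9.10% of all genes), while the arrays of Nap1l4 and Osbpl5 overlap. The decoy Tnfrsf11b (osteoprotegerin), which binds RANKL and TRAIL, was under background on all arrays, at 3.99, 4.19 and 4.18 in Sfrp1_KO and 4.26, 4.33 and 4.42 in WT.

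Replicate spread within genotypes differed widely between members. The median pooled SD within genotypes was 0.29 over the 15 members above background on all arrays of a genotype, and 0.21 over the 10376 genes that meet the same condition. Tnfsf9 (pooled SD 1.05), Tnfrsf12a (1.00), Tnf (0.68) and Tnfrsf26 (0.51) were the 4 members at 0.5 or more. For Tnfsf9, Tnfrsf12a, Tnf and Tnfrsf10b alike, replicate 1 was the highest and replicate 3 the lowest array in each genotype. Of the 20 members above background on any array, 13 had their lowest Sfrp1_KO value on replicate 3 and 8 their highest WT value on replicate 1. WT replicate 1 was instead the lowest WT array for Eda2r, Edar, Ltbr, Tnfrsf13b, Tnfrsf14, Tnfrsf18, Tnfrsf1a, Tnfrsf26 and Tnfrsf4. Shares of these orders over all genes were not counted.

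**Figure D3:**
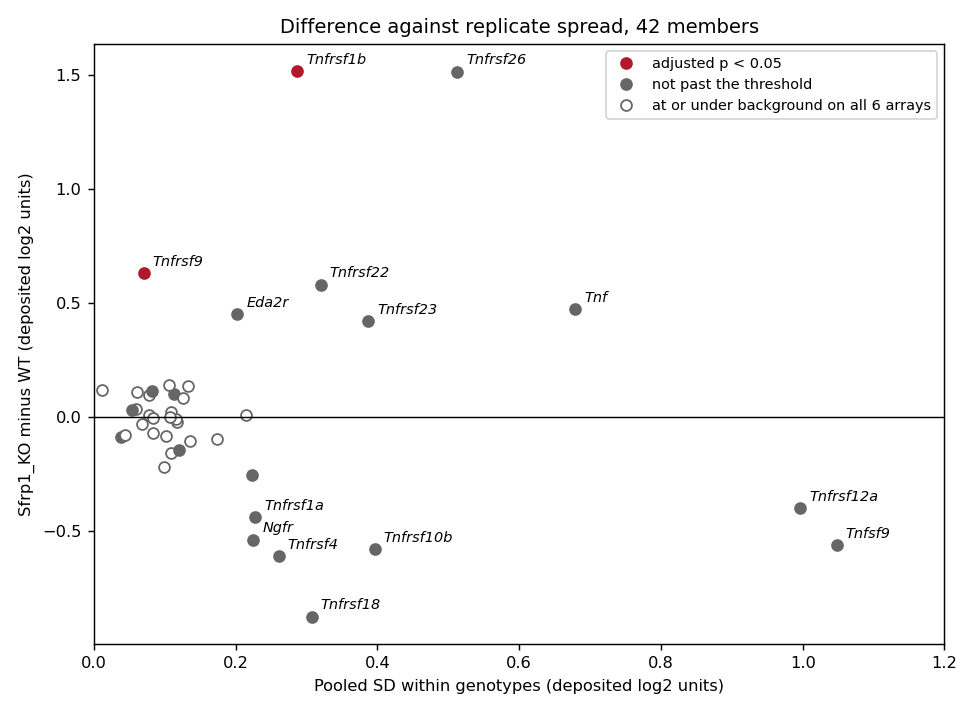
Difference between genotypes (Sfrp1_KO minus WT) against the pooled SD within genotypes, both in deposited log2 units, for the 42 members. Tnfrsf9 joins a small spread (0.07) to a difference of 0.63. Tnfrsf12a and Tnfsf9 lie far to the right, with spreads larger than the size of their differences.

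Genes downstream of the receptors were read from lists. Of 29 measured adaptor and death signalling genes, 1 fell (1.45% of all genes) and 0 rose (1.83% of all genes), with a median of -0.01. The one was Traf6, the adaptor that Edar, Tnfrsf11a and Cd40 use, at 4.74, 4.73 and 4.82 in Sfrp1_KO, against 5.18, 5.21 and 5.39 in WT. All Sfrp1_KO arrays were under background and all WT arrays above it, and the fall was at least 0.19 (fitted -0.50, SE 0.09, limma adjusted p = 0.0400). This call did not survive leaving out any 1 of the 6 arrays (limma adjusted p from 0.0618 to 0.167). Of 15 NF-kB subunits, kinases and inhibitors none was called by limma (median -0.01). Unadjusted p was under 0.05 for 3, against 14.4% of all genes. The smallest p-values were those of Nfkbie, an NF-kB inhibitor under background throughout (difference 0.32, limma adjusted p = 0.0775), and of Rel, a lymphoid NF-kB subunit (-0.47, limma adjusted p = 0.152).

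Of 23 genes known to be induced by TNF none was called by limma (median -0.03). Unadjusted p was under 0.05 for 7 of them, against 14.4% of all genes. Vcam1, an adhesion molecule for leukocytes, was at 6.56, 6.81 and 5.5 in Sfrp1_KO and at 4.66, 4.69 and 4.90 in WT (difference 1.54, SE 0.33, limma adjusted p = 0.0699). It passed without Sfrp1_KO replicate 3, its lowest array of that genotype (1.94, limma adjusted p = 0.00565). Leaving out any other single array, it did not pass (limma adjusted p from 0.151 to 0.222). Ptgs2, the inducible cyclooxygenase, named after its values were seen, was at 10.10, 10.95 and 9.67 in Sfrp1_KO and at 8.96, 7.28 and 7.52 in WT (difference 2.32, SE 0.51, limma adjusted p = 0.0777). Both genes separate the genotypes without passing the threshold. Cxcl1, a neutrophil chemokine, had 4.46, 4.73 and 4.51 in Sfrp1_KO, all under background, against 5.19, 4.95 and 5.09 in WT, where 2 were above it (at least 0.0069 lower, fitted -0.51, SE 0.11, limma adjusted p = 0.0720). Of 6 sheddases and their regulators 1 rose (1.83% of all genes) and 0 fell (1.45% of all genes). That was Timp3, which inhibits the TNF-releasing protease Adam17, by at least 4.22 (limma adjusted p = 0.00183), whereas Adam17 itself was at 6.12, 6.33 and 6.24 in Sfrp1_KO and 6.50, 6.15 and 6.13 in WT. Of 8 further co-receptors and ectodysplasin neighbours none was called by limma and 1 had unadjusted p under 0.05 (14.4% of all genes). Lgr4, which also binds RANKL, was under background on all Sfrp1_KO arrays and above it on 2 WT arrays (at least 0.13 lower, fitted -0.58, limma adjusted p = 0.158), and the neurotrophin co-receptor Sort1 had a difference of -0.21 (limma adjusted p = 0.374).

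**Figure D4:**
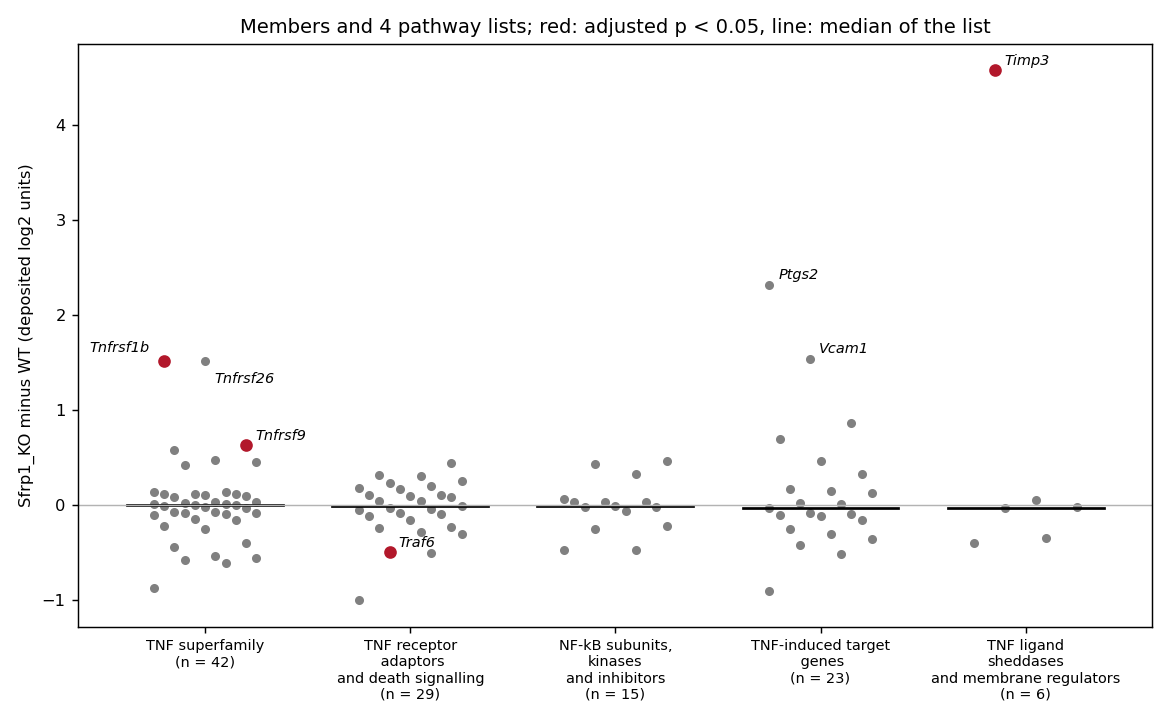
Differences (Sfrp1_KO minus WT, deposited log2 scale) of the TNF superfamily and of 4 lists of connected genes, with the list median as a line and genes called at adjusted p under 0.05 in red. All 5 medians lie near 0, and the called genes are Tnfrsf1b, Tnfrsf9, Traf6 and Timp3.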

How the data were processed

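The authors deposited log2 signals. The submitters' processing notes name RMA and Affymetrix Expression Console, with versions not given in the sources used here. No 2 arrays were identical. Of 72688 features, 30604 had 1 platform gene symbol after repeats of the same symbol were merged. Symbols were updated by gene identifier from RefSeq (GRCm38.p6; no member symbol changed), and the brightest feature per gene was kept, leaving 30142 genes. Fas and Tnfrsf19 had 2 features each.

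Genotypes were taken from sample titles and tested in R 4.3.3 by limma 3.58.1 (lmFit and eBayes, two-sided, Benjamini-Hochberg over all genes, called under 0.05). SE and 95% intervals are those of this fit. "At least" differences set a genotype under background on all its arrays to the background level, and carry the adjusted p of the unbounded fit. They compare means and hold no sampling error, so the true difference can be smaller. The number of arrays limits precision. The procedure was tested on simulated data with known changes.

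Members and lists were chosen with earlier results of these data known. Values are given for members called or above background on all arrays of a genotype, for their partners, and for the called genes of each list or the 2 of smallest p. Alternatives were the replicate block, dim genes left out, mean of all features, quantile normalization again, array weights, eBayes trend and robust options, a minimum difference of 1, and each array left out.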

Additional observations from a re-analysis of the deposited data

Results flagged for a closer look

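A feature shared by Tnfsf12 (TWEAK, the ligand of Tnfrsf12a), Tnfsf13 (APRIL) and their joint transcript carries several symbols and is outside the comparison. It was at 5.24, 5.17 and 5.31 in Sfrp1_KO, all above background, and at 4.77, 4.96 and 4.98 in WT, with 1 array above background. The difference of 0.34 was not tested, and which of the genes gave the signal cannot be told apart.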

How the results depend on the processing

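The 2 members called higher became 1 (Tnfrsf1b) with the replicate block, where Tnfrsf9 had adjusted p = 0.0611, and 1 with a minimum difference of 1 log2 unit. Leaving out 1 array at a time gave 0 to 3 members called higher and 0 to 1 called lower (Ngfr, without WT replicate 3). Over all genes, 552 higher and 437 lower became 297 and 238 with the replicate block, 295 and 244 with the minimum difference, 892 higher after quantile normalization again, and 191 to 487 higher and 100 to 407 lower without 1 array. The difference of Tnfrsf12a (-0.40) ran from -0.82 to 0.20 without 1 array and was 0.18 with array weights; that of Tnfsf9 (-0.56) ran from -1.11 to 0.040 without 1 array and was 0.050 with array weights. The other 16 members followed kept their direction in every alternative run. Traf6 was also not called with the replicate block (adjusted p = 0.0863). Edaradd passed with array weights (0.0256) and without WT replicate 1 (0.0366), Nfkbie with array weights (0.0490), Lgr4 without WT replicate 1 (0.0343), and Vcam1 without dim genes, after quantile normalization, with array weights and with trend and robust options (0.0290 to 0.0469). The cause of these shifts was not tested. The labels give both genotypes replicate numbers 1, 2 and 3. Deviations from the genotype means correlated at 0.18, -0.12 and 0.17 between same-numbered arrays. Between arrays of unlike number they ran from -0.33 to 0.25. With 3 arrays per genotype these values cannot decide whether the numbers pair the samples.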
